A study of Mus musculus with 2 samples.

Results

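Collagens are the main structural proteins of the extracellular matrix. Their chains wind around each other in trimers, and types I, III and V form the fibrils of connective tissue, type IV forms the network of basement membranes, and the fibril-associated types sit on the surface of fibrils. In mammary tumors, fibroblasts are the best known source of fibrillar chains, and type IV chains come from epithelial, myoepithelial and endothelial cells. The collagen genes described here are the 44 protein-coding genes of GENCODE M21 whose symbol has the form Col, number, a, number, out of 55536 genes in the deposited table. They were grouped as fibrillar (11 genes), basement membrane (8 genes, the type IV chains and the multiplexins Col15a1 and Col18a1), fibril-associated (9 genes) and other (16 genes). All 44 had at least 1 read in the C3G library and 41 had at least 1 in the DMSO library. The genes that mark the set, Col1a1, Col3a1 and Col4a2, were among its 10 most abundant in both libraries.

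The study compared mammary tumors of MMTV-PyVT mice given cyanidin-3-glucoside (C3G), a plant anthocyanin, with those of MMTV-PyVT mice given the vehicle dimethyl sulfoxide (DMSO), with dosing from the onset of ductal hyperplasia to a set tumor burden. All mice of both groups carry the transgene, in which the mouse mammary tumor virus promoter drives the polyoma virus middle T antigen in mammary epithelium. There was 1 RNA sequencing library of each group, and dose, age, strain and whether a library pools several tumors are not given in the sources used here. The C3G library held 16081110 gene-assigned reads and the DMSO library 12192275, recovered from the TPM values (reads per length scaled to a fixed total).

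With 1 library per group no gene could be tested, and a difference between the libraries cannot be told apart from a difference between mice. Ratios below are C3G TPM over DMSO TPM, with an exact 95% interval that covers counting error only. Log2 ratios are log2((C3G TPM + 1)/(DMSO TPM + 1)), which understates the change of low genes. A gene was called by size if it reached 5 TPM in either library and had a log2 ratio of 1 or more in either direction. In bulk tissue fewer cells of a type and less RNA per cell cannot be told apart. The tissue expressed luminal epithelial markers, with Epcam at 1399 TPM in the C3G library and 1484 TPM in the DMSO library. All 7 listed luminal markers summed to 5411 TPM with C3G and 7470 TPM with DMSO, and 6 of them were lower with C3G. Summed fibroblast markers other than collagens stood at 683 TPM in the C3G library and 694 TPM in the DMSO library. Adipocyte markers summed to 1354 TPM in the C3G library and 230.1 TPM in the DMSO library, and endothelial markers to 101 TPM with C3G and 41.7 TPM with DMSO.

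Collagen RNA was somewhat less abundant in the C3G library, where type I chains and the widespread type IV chains were lower, type III was level and the type IX chain Col9a1 was higher. The 44 genes summed to 2150 TPM in the C3G library and 2427 TPM in the DMSO library, a ratio of 0.886 (0.877 to 0.895). They took 0.554% of reads in the C3G library (Wilson 95% interval 0.551 to 0.558) and 0.664% in the DMSO library (0.660 to 0.669). Without Col1a1 and Col1a2, the other 42 genes summed to 1516 TPM in the C3G library and 1537 TPM in the DMSO library, a ratio of 0.986 (0.973 to 0.999). That sum includes Col9a1. Without Col9a1 alone, the other 43 genes summed to 1919 TPM with C3G and 2318 TPM with DMSO, a ratio of 0.828 (0.819 to 0.837). Fibrillar genes made up 49.9% of collagen TPM in the C3G library and 54.8% in the DMSO library, basement membrane genes 15.1% with C3G and 16.4% with DMSO, fibril-associated genes 25.6% with C3G and 19.0% with DMSO, and the other genes 9.44% with C3G and 9.79% with DMSO.

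By size 1 of the 27 collagen genes that reached 5 TPM in either library was called, Col9a1, which was higher in the C3G library. None was called lower. Among all 12780 genes that reached 5 TPM, 7.40% were called, 3.10% higher and 4.30% lower. Of the 11005 protein-coding genes among them, the closer background, 198 were called higher and 180 lower. With 1 gene called, the collagen genes cannot be set apart from either background. When log2 ratios were centred on genes averaging 10 TPM or more, a shift of 0.12, no collagen gene was called. Of the 35 collagen genes averaging 1 TPM or more over the libraries, 16 had a log2 ratio above 0 and 19 below, with a median of -0.01. Of all 17468 such genes 58.9% lay above 0 and 41.1% below, with a median of 0.10. Of the 13232 protein-coding genes among them 8470 lay above 0 and 4762 below, with a median of 0.14. For 11 of the 35 collagen genes the counting interval lay above a ratio of 1 and for 13 below it, while 52.6% of all such genes had an interval off 1, 34.4% above and 18.3% below.

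**Figure D1:**
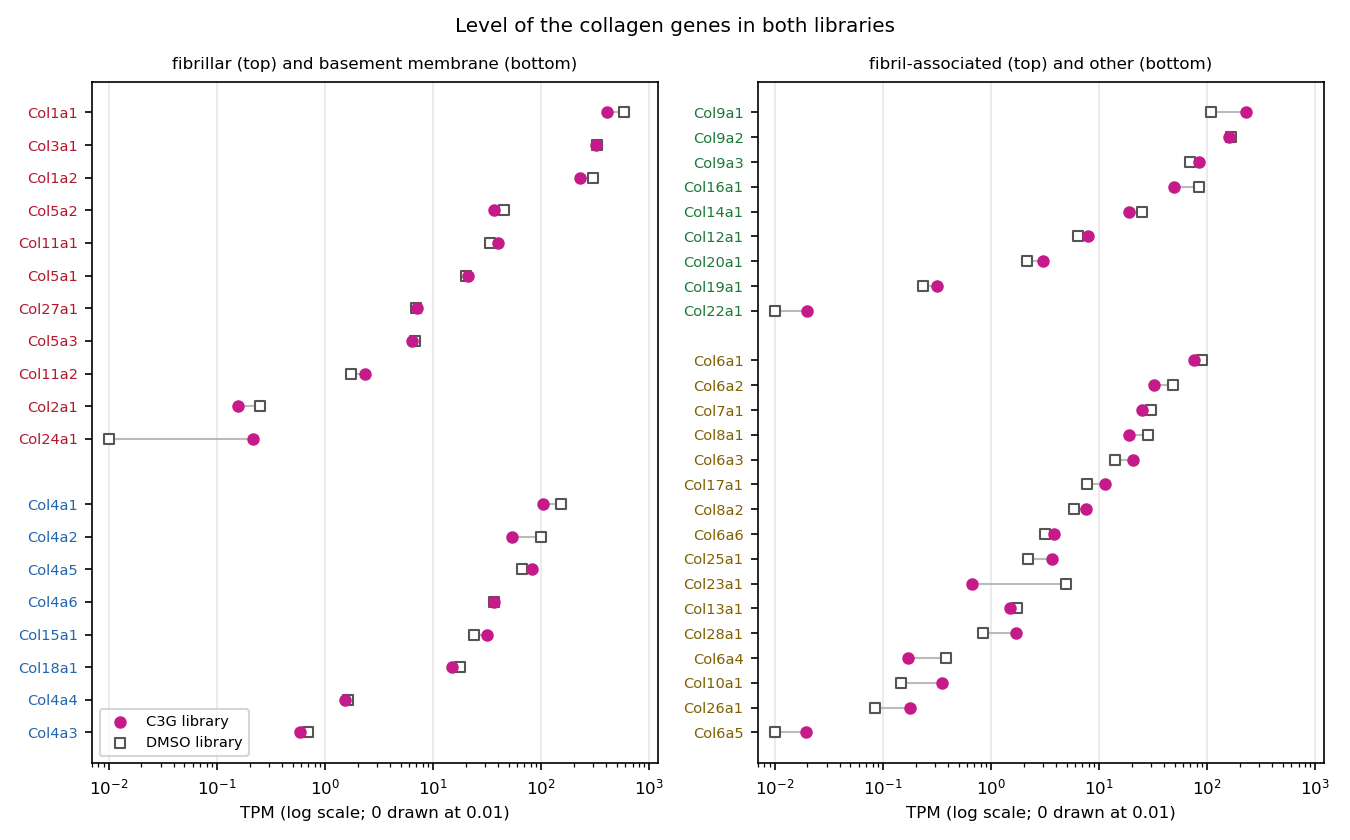
TPM of each of the 44 collagen genes in the C3G library (filled circles) and the DMSO library (open squares), on a log axis with values of 0 drawn at 0.01, grouped by class. Col1a1, Col3a1 and Col1a2 lead the fibrillar genes and Col9a1 the fibril-associated genes, where its C3G value of 230 TPM stands apart from its DMSO value of 109 TPM.

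The sequences upstream of Col9a1, the called gene, and Col23a1, the gene with the lowest ratio among those above a mean of 1 TPM, are given here from RefSeq (GRCm38.p6, plus strand, 5′ to 3′). Col9a1 encodes a chain of type IX collagen and has a pair of annotated starts on chromosome 1, the upstream one giving the long chain known from cartilage and the downstream one a shorter chain. TPM per gene does not separate the transcripts from these starts. Capitals mark matches on either strand to the GC box GGGCGG, the TATA motif with the letters TATAAA, the SOX core with the letters ACAAAG, or the letters CCAAT. RefSeq windows were matched for 35 of the 44 genes. The second window is cut 16 bases short of its start, where an annotated exon begins.
Col9a1 long, chr1:24177360-24177609: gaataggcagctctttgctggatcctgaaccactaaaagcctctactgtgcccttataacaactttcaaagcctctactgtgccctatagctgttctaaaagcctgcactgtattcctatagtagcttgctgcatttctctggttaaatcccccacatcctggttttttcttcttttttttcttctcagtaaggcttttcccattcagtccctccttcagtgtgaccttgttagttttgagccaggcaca
Col9a1 short, chr1:24194953-24195186: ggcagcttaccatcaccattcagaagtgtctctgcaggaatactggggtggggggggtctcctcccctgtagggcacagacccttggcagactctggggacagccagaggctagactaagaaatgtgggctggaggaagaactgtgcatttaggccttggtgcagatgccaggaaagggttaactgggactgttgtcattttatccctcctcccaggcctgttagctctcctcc
Col23a1, chr11:51289670-51289919: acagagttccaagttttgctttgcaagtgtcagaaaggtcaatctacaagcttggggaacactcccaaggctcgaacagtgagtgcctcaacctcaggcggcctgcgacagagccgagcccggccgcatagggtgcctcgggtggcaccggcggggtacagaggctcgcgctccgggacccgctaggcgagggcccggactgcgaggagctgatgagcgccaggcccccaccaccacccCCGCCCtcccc
As shown, neither Col9a1 window held any of these exact letters, and the Col23a1 window held 1 GC box on the minus strand. Looser forms of the motifs were not searched, so a window without a match can still hold a related site. Among 32851 mouse windows of 250 bases, 32.7% held the GC box, 33.8% the letters CCAAT, 12.4% the TATA motif and 16.5% the SOX core.

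Among the fibrillar collagens, both type I chains were lower in the C3G library and the type III chain was level. Col1a1 (chromosome 11, 94936224 to 94953042 in mm10), the main chain of bone, skin and tumor stroma fibrils, had 404 TPM in the C3G library and 587 TPM in the DMSO library, a ratio of 0.688 (0.673 to 0.703). Its partner chain Col1a2 (chromosome 6, 4504814 to 4541544) had 230.0 TPM in the C3G library and 302 TPM in the DMSO library, a ratio of 0.761 (0.744 to 0.778). Col3a1 (chromosome 1, 45311538 to 45349706), which co-assembles with type I in soft tissue, had 325 TPM in the C3G library and 326 TPM in the DMSO library, a ratio of 0.996 (0.974 to 1.02). These 3 genes held 44.6% of collagen TPM in the C3G library and 50.1% in the DMSO library. The ratio of Col3a1 to Col1a1 was 0.804 in the C3G library and 0.555 in the DMSO library, so it differed 1.45-fold between them (1.40 to 1.49).

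The minor fibrillar chains, which set the start and width of type I and type II fibrils, lay on both sides of a ratio of 1. Col5a2 had 36.6 TPM in the C3G library and 45.5 TPM in the DMSO library, a ratio of 0.806 (0.756 to 0.859), and it lies 24614 bases from Col3a1 on the opposite strand. Its partner Col5a1 was level, at 20.9 TPM in the C3G library and 20.3 TPM in the DMSO library, and its log2 ratio of 0.04 fell below 0 once centred. Col11a1, best known from cartilage fibrils, had 39.97 TPM in the C3G library and 33.7 TPM in the DMSO library, a ratio of 1.19 (1.12 to 1.26). For Col5a3 the levels were 6.41 TPM in the C3G library and 6.84 TPM in the DMSO library, and for Col27a1, a fibrillar chain of a later branch, 7.04 TPM with C3G and 6.91 TPM with DMSO. The intervals of Col5a1, Col5a3 and Col27a1 all spanned 1. Col11a2 stood at 2.33 TPM in the C3G library and 1.74 TPM in the DMSO library. Col2a1, the main chain of cartilage, had 8 reads in the C3G library and 10 in the DMSO library. Col24a1 had 9 reads in the C3G library and 0 in the DMSO library, at least 2.37-fold higher when the DMSO library is set at a floor of 3 reads. Over the 9 fibrillar genes with a mean of at least 1 TPM the median log2 ratio was -0.01, with 4 above 0 and 5 below.

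**Figure D2:**
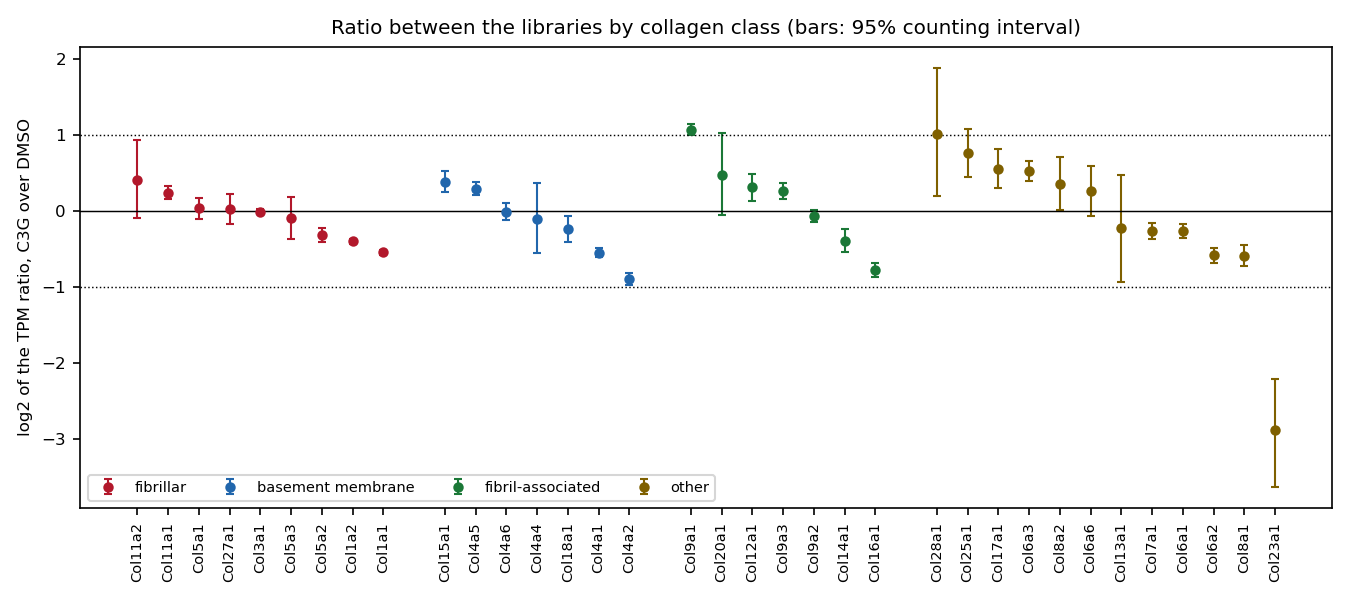
Log2 of the plain TPM ratio, C3G over DMSO, for the 35 collagen genes averaging 1 TPM or more, by class and in falling order, with 95% counting intervals. Dotted lines mark 1 and -1, and Col9a1 at the top and Col4a2 and Col16a1 below 0 have narrow intervals while Col28a1 and Col23a1 have wide ones.

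Basement membrane collagens split by gene pair. The 6 type IV genes lie in 3 head-to-head pairs, and the pair of the widespread chains, Col4a1 and Col4a2, was lower in the C3G library while the Col4a5 and Col4a6 pair was not. Col4a1 (chromosome 8, 11198423 to 11312826) had 104 TPM in the C3G library and 152 TPM in the DMSO library, a ratio of 0.685 (0.658 to 0.714). Col4a2 (chromosome 8, 11312805 to 11449287) had 53.6 TPM in the C3G library and 99.5 TPM in the DMSO library, a ratio of 0.539 (0.509 to 0.571), with a log2 ratio of -0.88, short of a call. The annotated starts of these genes are 21 bases apart and their exons overlap by 22 bases. Together they summed to 158 TPM in the C3G library and 252 TPM in the DMSO library, a ratio of 0.628 (0.607 to 0.649).

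On the X chromosome, Col4a5 (141475385 to 141689234), whose human counterpart is mutated in Alport syndrome, had 81.5 TPM in the C3G library and 66.4 TPM in the DMSO library, a ratio of 1.23 (1.16 to 1.30). Its neighbour Col4a6 had 36.3 TPM in each library. Col4a5 therefore reached 0.781 of the Col4a1 level in the C3G library and 0.436 of it in the DMSO library, a difference of 1.79-fold (1.67 to 1.92). The kidney and lung chains Col4a3 and Col4a4 were low, with Col4a4 at 1.53 TPM in the C3G library and 1.63 TPM in the DMSO library and Col4a3 at 0.584 TPM with C3G and 0.694 TPM with DMSO. The multiplexins, which carry long sugar chains and sit next to basement membranes, differed from each other. Col15a1 had 31.3 TPM in the C3G library and 23.9 TPM in the DMSO library, a ratio of 1.31 (1.19 to 1.45). Col18a1, the source of the fragment endostatin, had 15.1 TPM in the C3G library and 17.7 TPM in the DMSO library, a ratio of 0.850 (0.755 to 0.958). The 7 genes of the class with a mean of at least 1 TPM had a median log2 ratio of -0.06, with 2 above 0 and 5 below. Where Col4a1 and Col4a2 were lower, summed myoepithelial markers stood at 556 TPM in the C3G library and 1085 TPM in the DMSO library. Acta2 alone held 318 TPM of that sum with C3G and 712 TPM with DMSO. Of the 7 myoepithelial markers 5 were lower with C3G. Higher were Krt5 (48.4 TPM with C3G and 36.2 TPM with DMSO) and Trp63 (14.9 TPM with C3G and 11.9 TPM with DMSO). Endothelial markers summed to 101 TPM with C3G and 41.7 TPM with DMSO. The part of either marker list in these levels was not tested.

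Among the fibril-associated collagens, type IX made up most of the RNA and 1 of its 3 chains differed more than the other two. Col9a1 (chromosome 1, 24177610 to 24252684) had 230.4 TPM in the C3G library and 109 TPM in the DMSO library, a ratio of 2.11 (2.01 to 2.21) and a log2 ratio of 1.07, on 6416 reads in the C3G library and 2402 in the DMSO library. The partner chain Col9a2 (chromosome 4, 121039385 to 121055322) had 158 TPM in the C3G library and 164 TPM in the DMSO library, a ratio of 0.959 (0.906 to 1.01). Col9a3 (chromosome 2, 180597790 to 180622189) had 83.1 TPM in the C3G library and 69.1 TPM in the DMSO library, a ratio of 1.20 (1.11 to 1.29), and 234 of its exonic bases overlap Tcfl5. Col9a1 thus stood at 1.46 times the Col9a2 level in the C3G library and 0.665 times in the DMSO library, a difference of 2.20-fold (2.04 to 2.37). Type IX is known from cartilage, where it decorates type II fibrils, while Col2a1 was at 0.158 TPM in the C3G library and 0.250 TPM in the DMSO library.

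Cartilage markers were low in both libraries. The 7 listed genes summed to 10.9 TPM in the C3G library and 8.57 TPM in the DMSO library. Acan, Matn1 and Hapln1 were at 0 in the C3G library and Hapln1 was at 0 in the DMSO library, while Chad stood at 8.12 TPM in the C3G library and 3.98 TPM in the DMSO library. The 3 type IX genes summed to 471 TPM in the C3G library and 343 TPM in the DMSO library, which was 21.9% of collagen TPM with C3G and 14.1% with DMSO.

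The FACITs that bind type I fibrils or lie near basement membranes were mixed. Col16a1 (chromosome 4, 130047840 to 130099283), found at the border of fibrils and basement membranes, had 49.3 TPM in the C3G library and 84.3 TPM in the DMSO library, a ratio of 0.585 (0.550 to 0.622). Col14a1, which binds fibrils with the proteoglycan decorin, had 18.9 TPM in the C3G library and 24.7 TPM in the DMSO library, a ratio of 0.766 (0.691 to 0.849). Its relative Col12a1 had 7.90 TPM in the C3G library and 6.35 TPM in the DMSO library, a ratio of 1.24 (1.10 to 1.41). Thus these fibril-binding relatives lay on opposite sides of 1. Col20a1 stood at 3.01 TPM in the C3G library and 2.15 TPM in the DMSO library, Col19a1 at 0.317 TPM with C3G and 0.234 TPM with DMSO, and Col22a1 had 1 read in the C3G library and 0 in the DMSO library. The class median over the 7 genes with a mean of at least 1 TPM was 0.26, with 4 above 0 and 3 below.

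Among the other collagens, the chains of type VI, which forms beaded filaments in most connective tissue, did not go together, with Col6a1 and Col6a2 lower and Col6a3 higher in the C3G library. Col6a1 (chromosome 10, 76708792 to 76726168) had 75.2 TPM in the C3G library and 90.05 TPM in the DMSO library, a ratio of 0.835 (0.781 to 0.892). Col6a2, next to it in tandem, had 32.1 TPM in the C3G library and 47.9 TPM in the DMSO library, a ratio of 0.670 (0.624 to 0.719). Col6a3 (chromosome 1, 90765923 to 90843971), whose cleaved end is the adipose-derived peptide endotrophin, had 20.4 TPM in the C3G library and 14.1 TPM in the DMSO library, a ratio of 1.45 (1.32 to 1.59). The level of Col6a3 relative to Col6a2 was 0.636 in the C3G library and 0.294 in the DMSO library, a difference of 2.16-fold (1.93 to 2.42). In the same libraries adipocyte markers summed to 1354 TPM with C3G and 230.1 TPM with DMSO, and their part in Col6a3 was not tested. Col6a6, a chain that can replace Col6a3, stood at 3.81 TPM in the C3G library and 3.17 TPM in the DMSO library, and Col6a4 and Col6a5 at 14 reads or fewer.

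The network-forming type VIII chains also went apart. Col8a1, known from vessel walls, had 19.1 TPM in the C3G library and 28.6 TPM in the DMSO library, a ratio of 0.668 (0.608 to 0.734). Col8a2 had 7.54 TPM in the C3G library and 5.86 TPM in the DMSO library, a ratio of 1.29 (1.01 to 1.64). The Col8a1 to Col8a2 ratio was therefore 2.53 in the C3G library and 4.88 in the DMSO library. Col10a1, the short chain of growth plate cartilage, had 6 reads in the C3G library and 2 in the DMSO library, a ratio of 2.37 (0.423 to 24.0).

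**Figure D3:**
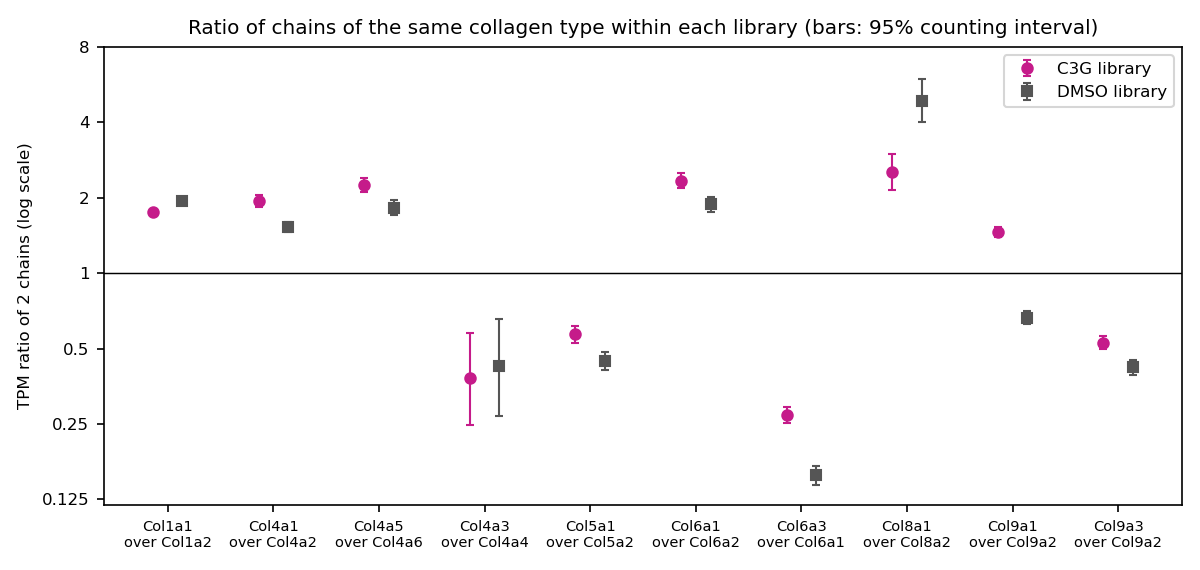
TPM ratio of chains of the same collagen type within the C3G library (circles) and the DMSO library (squares), on a log axis with 95% counting intervals. Col9a1 over Col9a2 lies at 1.46 in the C3G library and 0.665 in the DMSO library, on opposite sides of the line at 1, while Col1a1 over Col1a2 lies at 1.76 with C3G and 1.94 with DMSO.

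At the border of epithelium and stroma, the anchoring fibril gene Col7a1 had 25.1 TPM in the C3G library and 30.0 TPM in the DMSO library, a ratio of 0.837 (0.776 to 0.902). Col17a1, a transmembrane collagen of hemidesmosomes in basal epithelial cells, had 11.4 TPM in the C3G library and 7.71 TPM in the DMSO library, a ratio of 1.48 (1.24 to 1.76). The basal keratin gene Krt5, on the myoepithelial marker list, had 48.4 TPM in the C3G library and 36.2 TPM in the DMSO library. On the same list the other basal keratin gene, Krt14, had 66.0 TPM with C3G and 83.7 TPM with DMSO, and Acta2 had 318 TPM with C3G and 712 TPM with DMSO. Col17a1 and Krt5 were thus higher in the C3G library, and Col7a1, Krt14 and Acta2 lower.

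The other transmembrane collagens held the lowest ratio of the family. Col23a1 (chromosome 11, 51289920 to 51583918), a cell surface collagen that binds integrin, had 0.666 TPM in the C3G library and 4.91 TPM in the DMSO library, a ratio of 0.136 (0.081 to 0.217) on 21 reads with C3G and 122 with DMSO. Its log2 ratio of -1.83 passed the size threshold, but its higher level lay just under the minimum of 5 TPM, so it was not called. Col25a1 had 3.70 TPM in the C3G library and 2.17 TPM in the DMSO library, a ratio of 1.70 (1.37 to 2.13), and Col13a1 1.50 TPM with C3G and 1.75 TPM with DMSO. Col28a1 rested on 46 reads in the C3G library and 18 in the DMSO library, with a ratio of 2.02 (1.15 to 3.70), and Col26a1 on 8 reads with C3G and 3 with DMSO. Over the 12 genes of the class with a mean of at least 1 TPM the median log2 ratio was 0.03, with 6 above 0 and 6 below, and it was -0.09 when centred.

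The order of levels was much the same in both libraries, with Col1a1 and Col3a1 first and second in each. Col9a1 was the third most abundant collagen gene in the C3G library and the 6th in the DMSO library, and Col4a2 the 10th with C3G and the 7th with DMSO. Levels between genes depend on the gene length used. The deposited TPM matches the union of all annotated exons, which is 12426 bases for Col1a2 against 5348 bases for its longest coding transcript. On the transcript length Col1a1 was 0.836 times Col1a2 in the C3G library and 0.925 times in the DMSO library, in place of 1.76 times with C3G and 1.94 times with DMSO. The Col3a1 to Col1a1 ratio was then 1.28 in the C3G library and 0.884 in the DMSO library. In a ratio between the libraries the length of the gene itself cancels. The scaling of TPM to a fixed total would still change with other lengths, by a factor common to all genes. That factor was not computed.

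Collagen genes are long, with exon-union lengths of 3095 to 15228 bases and a median of 7542 bases, against a median of 3924 bases for the 12107 genes averaging 5 TPM or more. Among those 12107 genes longer ones tended to have higher ratios, with Spearman's correlation of 0.23 as a description across genes. At the lengths of the collagen genes the trend of the 12107 genes lay at 0.10 to 0.24 on the log2 ratio. With the trend removed the median log2 ratio of the collagen genes was -0.23, Col4a2 passed the size threshold at -1.08 and Col9a1 stood at 0.89, short of it.

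**Figure D4:**
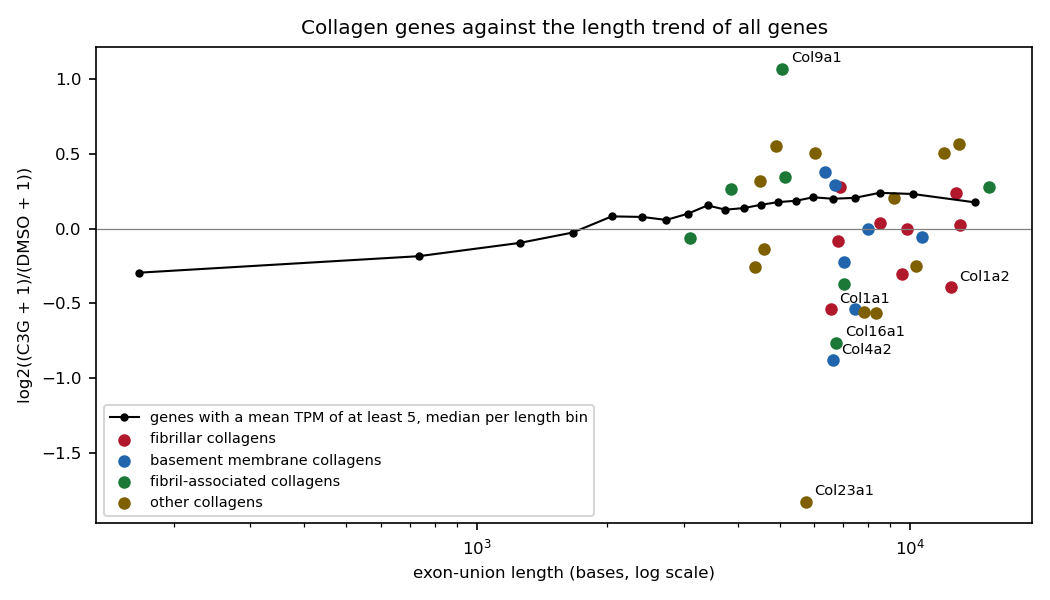
Log2 ratio (C3G over DMSO, pseudocount 1) against exon-union length on a log axis for the 35 collagen genes averaging 1 TPM or more, coloured by class, with the median of all genes averaging 5 TPM or more in 20 length bins as a line. Of the 35 collagen genes 22 lie below the line at their length, and Col9a1 at 1.07 lies above it.

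Genes that modify, export and process collagen chains showed no shift in a single direction. None of the 17 modifying enzymes and chaperones was called, 9 lay above 0 and 8 below, and the median log2 ratio was 0.04. The lysyl hydroxylase gene Plod1 had 34.2 TPM in the C3G library and 23.9 TPM in the DMSO library, and the galactosyltransferase gene Colgalt1 had 86.0 TPM with C3G and 61.0 TPM with DMSO. The prolyl hydroxylase subunit P4ha3 had 3.60 TPM in the C3G library and 6.40 TPM in the DMSO library, and the chaperone Fkbp10 12.6 TPM with C3G and 18.2 TPM with DMSO. Of 12 genes of export and propeptide removal 9 were above a mean of 1 TPM, with a median of 0.17 and none called. The export coat gene Sec24d had 31.8 TPM in the C3G library and 21.2 TPM in the DMSO library, and Mia2 31.4 TPM with C3G and 23.95 TPM with DMSO. The propeptide proteases Adamts2 (12.5 TPM in the C3G library and 19.4 TPM in the DMSO library) and Bmp1 (9.79 TPM with C3G and 14.6 TPM with DMSO) were lower, while Adamts3, outside the naming rule, stood at 3.92 TPM with C3G and 2.29 TPM with DMSO.

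Cross-linking enzymes were divided, with a median of 0.10, 3 of 6 above 0 and none called. Lox, which oxidises lysines of fibrillar chains, had 48.3 TPM in the C3G library and 33.1 TPM in the DMSO library, Loxl2 8.28 TPM with C3G and 5.29 TPM with DMSO, and Loxl3 11.4 TPM with C3G and 20.1 TPM with DMSO. Pxdn, which cross-links type IV collagen, had 50.7 TPM in the C3G library and 30.5 TPM in the DMSO library, a ratio of 1.66 (1.55 to 1.78), while Col4a1 and Col4a2 were lower. Of 9 basement membrane partners none was called, 3 lay above 0 and 6 below, and the median was -0.02. Lama4, a laminin chain of vessels, had 15.6 TPM in the C3G library and 9.92 TPM in the DMSO library, Lama5 38.6 TPM with C3G and 46.6 TPM with DMSO, the perlecan gene Hspg2 15.1 TPM with C3G and 18.1 TPM with DMSO, and Nid1 26.0 TPM with C3G and 28.5 TPM with DMSO.

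The 7 collagen pathway lists held 1 called gene, Fmod of the fibril-binding list, while 7.40% of all genes that reached 5 TPM were called. That level was reached by 15 modifying, 7 export, 6 cross-linking and 8 basement membrane partner genes. It was also reached by 10 fibril-binding, 7 receptor and 4 degrading genes. The call therefore does not set the lists above the background. Fmod, a proteoglycan that guides the growth of type I fibrils, had 30.2 TPM in the C3G library and 84.6 TPM in the DMSO library, a ratio of 0.357 (0.322 to 0.395). Related small leucine-rich proteoglycans went both ways. Lower in the C3G library were Bgn at 184 TPM in the C3G library and 323 TPM in the DMSO library and Prelp at 12.1 TPM with C3G and 24.1 TPM with DMSO, as was the collagen-binding protein Sparc at 1013 TPM with C3G and 1452 TPM with DMSO. Higher were Lum at 119 TPM with C3G and 96.9 TPM with DMSO, a ratio of 1.23 (1.14 to 1.34), and Aspn at 21.7 TPM with C3G and 15.5 TPM with DMSO, a ratio of 1.40 (1.15 to 1.72), both outside the naming rule. The list had a median of -0.11, with 4 of 11 above 0. Collagen receptors had a median of 0.22, 7 of 11 above 0 and none called. The adhesion receptor Adgrg6 had 12.3 TPM in the C3G library and 7.88 TPM in the DMSO library, Adgrg1 62.5 TPM with C3G and 48.5 TPM with DMSO, the integrin chain Itga2 10.6 TPM with C3G and 7.66 TPM with DMSO, and the uptake receptor Mrc2 10.5 TPM with C3G and 17.4 TPM with DMSO. Degrading enzymes had a median of -0.30, with 1 of 5 above 0 and none called. The membrane collagenase Mmp14 had 56.1 TPM in the C3G library and 106 TPM in the DMSO library, a ratio of 0.529 (0.498 to 0.561), Mmp2 45.6 TPM with C3G and 63.8 TPM with DMSO, Mmp13 4.56 TPM with C3G and 5.87 TPM with DMSO and the cathepsin Ctsk 49.6 TPM with C3G and 55.1 TPM with DMSO.

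**Figure D5:**
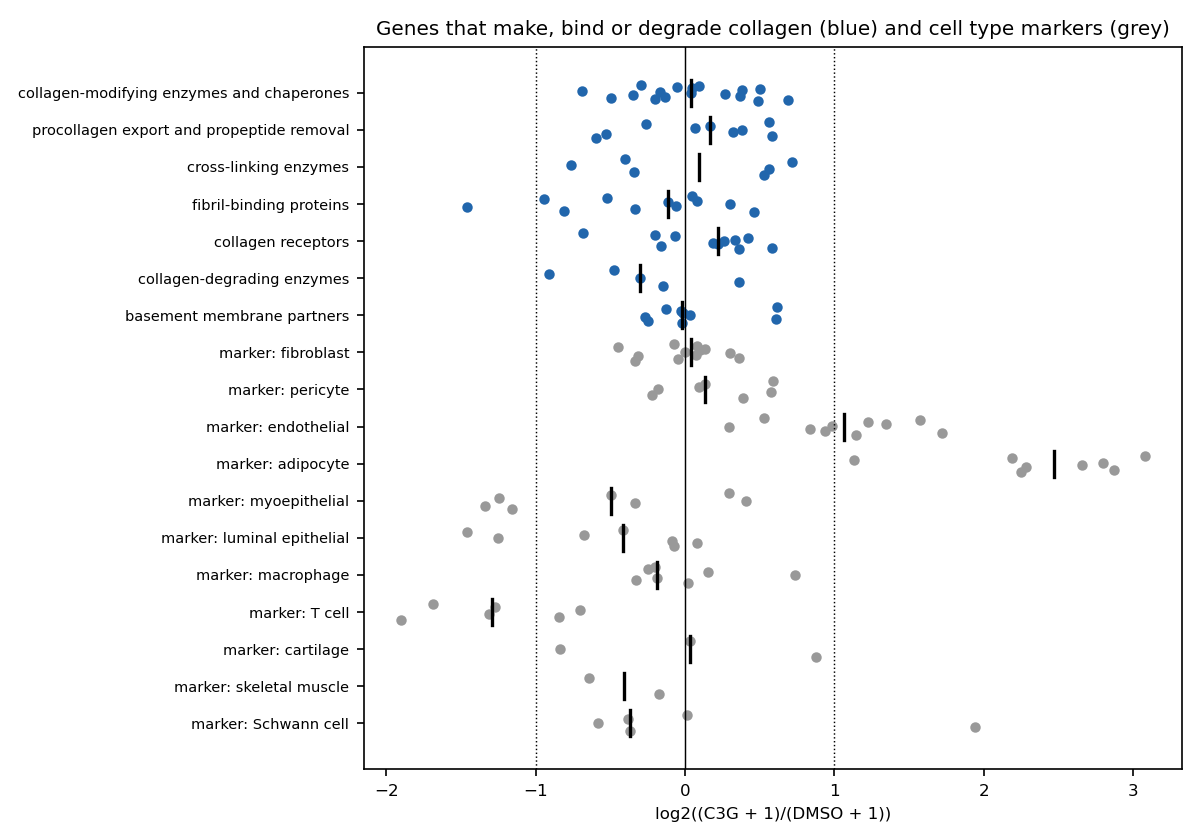
Log2 ratio (C3G over DMSO, pseudocount 1) of each gene averaging 1 TPM or more in the 7 collagen pathway lists (blue) and the 11 cell type marker lists (grey), with the median as a bar and dotted lines at 1 and -1. Fibroblast markers centre at 0.04, adipocyte and endothelial markers lie above 0, and Fmod is the blue point below -1.

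The marker lists gave the setting of these values. Fibroblast markers had a median log2 ratio of 0.04, with 6 of 12 above 0 and none called, and pericyte markers summed to 129 TPM in the C3G library and 122 TPM in the DMSO library. Macrophage markers summed to 936 TPM in the C3G library and 1088 TPM in the DMSO library. Most of that sum was C1qa (408 TPM with C3G and 512 TPM with DMSO) and C1qb (374 TPM with C3G and 427 TPM with DMSO). Of the 7 macrophage markers 3 had a log2 ratio above 0, with Cd163 the highest, and 4 below. T cell markers summed to 16.3 TPM with C3G and 54.3 TPM with DMSO, and luminal epithelial markers to 5411 TPM with C3G and 7470 TPM with DMSO. Schwann cell markers, of which Sox10 is the most abundant, summed to 484 TPM with C3G and 499 TPM with DMSO. Skeletal muscle markers summed to 2.24 TPM in the C3G library and 3.52 TPM in the DMSO library, with Ckm at 0 in both. The part of these lists in the collagen levels was not tested.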

How the data were processed

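RNA of mammary tumors was sequenced in 1 library per group. Per the submitters' processing notes, FastQC, MultiQC, Trimmomatic 0.38, featureCounts 2.0.0 and build mm10 were used, and the aligner is not given in the sources used here. Per the labels' protocols, the kit was TruSeq RNA version 2, which does not mark strand. The authors deposited TPM for 55536 Ensembl genes, all matched to GENCODE M21. TPM multiplied by exon-union length gave whole multiples of 1 step per library for 100% of values above 0, within 0.01 of a step, and 1 step was taken as 1 read. PCR copies cannot be told from molecules here, so intervals and the floor of 3 reads cover counting error only. No test was possible.

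Log2 ratios used a pseudocount of 1, medians a mean TPM of at least 1 and calls 5 TPM in either library with a log2 ratio of 1 or more in size. Collagen genes that reached 5 TPM in either library were named, with the 3 below that whose log2 ratios (pseudocount 1) were largest in size, up to 4 genes per pathway list and others with few reads. The members, lists and thresholds were chosen with earlier results of these data known. Intervals of ratios of ratios and of summed TPM used normal approximations on the log scale. Chromosome, start and end are from the annotation in mm10. Python 3.11.15, NumPy 2.4.6, pandas 2.3.3 and SciPy 1.17.1 were used. The procedure was tested on simulated counts with changes above the size threshold and no spread between mice. That check covers neither calls near the threshold nor differences between mice.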

Additional observations from a re-analysis of the deposited data

How the results depend on the processing

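No paired analysis was possible because each group has 1 library. The alternatives were a pseudocount of 0.1 or 5, no filter or a stricter one (5 TPM on average for medians, 20 TPM in either library for calls), centring, rescaling without mitochondrial genes and the 50 most abundant genes, and removal of the length trend. A minimum of 50 reads was chosen after seeing the data. The count of collagen genes called was 1 as reported, 2 with no filter and after rescaling (Col9a1 and Col23a1), and 0 with centring. It was 1 with the length trend removed, but that gene was Col4a2 and not Col9a1. Col9a1 was the gene called under both pseudocounts, the stricter filter, thinning to equal depth and the minimum of 50 reads. With the length trend removed the median was -0.23 for collagen genes, -0.24 for fibrillar, -0.28 for basement membrane, 0.10 for fibril-associated and -0.16 for other collagen genes. Centring gave -0.13 for fibrillar, -0.18 for basement membrane, 0.14 for fibril-associated and -0.09 for other collagen genes, and a summed ratio of 0.815. The fibril-associated median was 0.0935 with no filter and 0.10 with the stricter one, and that of other collagen genes -0.25 with the stricter one. Among the pathway lists, the median of modifying enzymes and chaperones was -0.08 centred and -0.14 without the length trend, and the cross-linking median was -0.02 centred, -0.22 with no filter, -0.27 after rescaling and -0.0581 without the length trend. For fibril-binding proteins it was -0.23 centred and -0.27 without the length trend, for basement membrane partners -0.14 and -0.25, and for receptors -0.0684 with the stricter filter. Centring and removal of the length trend change each log2 ratio by a set amount, so medians shift with them by construction. A filter shifts a median through the genes that it adds or removes. The cause of the shift after rescaling, and of the length trend itself, was not tested. Calls over all genes were 946 as reported (396 higher, 550 lower), 488 with a pseudocount of 5 (179 and 309), 2304 with no filter (1086 and 1218), 350 with the stricter filter (109 and 241) and 530 with 50 reads (218 and 312). Upward calls were 41.9% as reported, 31.0% centred and 31.1% with the stricter filter. Of 30 named genes 2 changed sign when centred or without the length trend (Col27a1 and Col5a1) and 2 after rescaling (Col3a1 and Col4a6), all with intervals that span a ratio of 1. Of the 30 genes 16 moved outside their counting interval when centred and 22 without the length trend. Centring took the same 0.12 from every gene, and the length trend took 0.10 to 0.24 from collagen genes. Genes with many reads have narrow intervals and so moved outside them, while Col23a1, with few reads, did not. The counts therefore do not show which sizes are stable. Col3a1 went to -0.13 centred and -0.24 without the length trend, and Col4a5 from 0.29 to 0.17 and 0.09. With 1 library per group, depth limits genes of few reads and the spread between mice was not measured.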

Other observations

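The SOX transcription factors are known regulators of the type IX genes in cartilage. Named after their values were seen, Sox9 had 149 TPM in the C3G library and 233 TPM in the DMSO library, a ratio of 0.638 (0.610 to 0.668), and Sox10 had 417 TPM with C3G and 414 TPM with DMSO. Sox5 had 4.95 TPM in the C3G library and 3.88 TPM in the DMSO library, and Sox6 2.16 TPM with C3G and 2.43 TPM with DMSO. Sox9 was thus lower in the library where Col9a1 was higher. No relation between these genes was tested, since there are 2 libraries.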
